A study of Mus musculus with 10 samples.

Results

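The nuclear factor I (NFI) transcription factors were examined in maps of N6-methyladenosine (m6A) from mouse brain. The family was taken as the genes Nfia, Nfib, Nfic and Nfix by their symbols in the 2 deposited peak lists. These are 4 of the 8516 genes with a peak in either list. The family was selected on earlier results of these data, namely the number of WT peaks of Nfix that a KO peak overlapped, beside the lower numbers of its paralogs. These counts are therefore given as a description and carry no p-value.

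RNA was from cortex and hippocampus of animals at postnatal day 5. The knockout (KO) group carried a Mettl14 deletion driven by Nestin-Cre and comprised 2 m6A immunoprecipitation (IP) libraries and 2 input libraries. The wild-type (WT) group comprised 3 IP and 3 input libraries. Nestin-Cre acts in the neuroepithelial lineage, which yields neurons, astrocytes and oligodendrocytes, so microglia and vessel cells are not expected targets. Per the labels the RNA was polyadenylated, but they also name a culture medium, and they do not settle if the cells were cultured before extraction. One consensus list per genotype was used, so no difference between KO and WT has a replicate error, and nothing links libraries to separate animals.

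NFI proteins bind DNA as dimers through a conserved amino-terminal domain and act as activators or repressors. In the embryonic brain Nfia, Nfib and Nfix promote the switch of radial glia from self-renewal to neuronal and astrocytic differentiation, and their loss in mice delays gliogenesis and disturbs the hippocampus and corpus callosum. Nfic is best known for its role in tooth root formation in mice. METTL14 forms, with the catalytic METTL3, the complex that writes most m6A on mRNA. In m6A-seq an antibody pulls down methylated fragments, and stretches enriched over input RNA are listed as peaks.

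The KO list held 3673 peaks in 2879 genes and the WT list 15009 peaks in 7717 genes, after overlapping entries of a list were merged. No NFI entry was changed by merging. Each peak carries a deposited score, read as the p-value or q-value of the authors' peak caller (which of them is not stated), and a smaller score is a stronger peak. The scores are the authors' own and are used only to place a peak within its list. A WT peak is called overlapped where its exonic blocks share 1 base or more with a KO peak of that strand. Library depth is unknown here, and no expression level was available, so a missing peak cannot be told apart from lower expression of its gene. A shorter list from fewer libraries cannot be told apart from weaker methylation either. Coordinates are those of GRCm38, counted from 1. Peak borders moved in steps, since 81.8% of 14057 single-block entries had a width that was a multiple of 30 bases or 1 base more.

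Nfix had more KO peaks and more overlapped WT peaks than its paralogs, which is the contrast it was picked on. It held 7 KO peaks and 7 WT peaks, and 6 of the WT peaks were overlapped (85.7%, Wilson 95% interval 48.7 to 97.4). Over all genes, 1933 of 15009 WT peaks were overlapped, which is 12.9%. Nfib had 1 KO peak and 4 WT peaks, 1 of them overlapped (25.0%, interval 4.56 to 69.9). Nfia had 1 KO peak and 2 WT peaks, none overlapped (interval 0 to 65.8). Nfic had no KO peak and 3 WT peaks (interval 0 to 56.1). Counted by gene, 3 of the 4 had a KO peak and 2 an overlapped WT peak, against 27.0% and 20.6% of all genes with a WT peak. Together the 3 paralogs had 1 of 9 WT peaks overlapped (11.1%, interval 1.99 to 43.5), a share near that of all genes. The interval of Nfix overlapped that of each single paralog, though not that of the 3 together. These intervals cover counting error only, and neighbouring peaks of a transcript are not independent of each other. The counts depended on the length of the WT list: with its 3673 strongest peaks alone, as many as the KO list holds, 1 of 2 WT peaks of Nfix, 0 of 1 of Nfib and 28.6% of those of all genes were overlapped, and Nfia and Nfic had no WT peak.

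**Figure D1:**
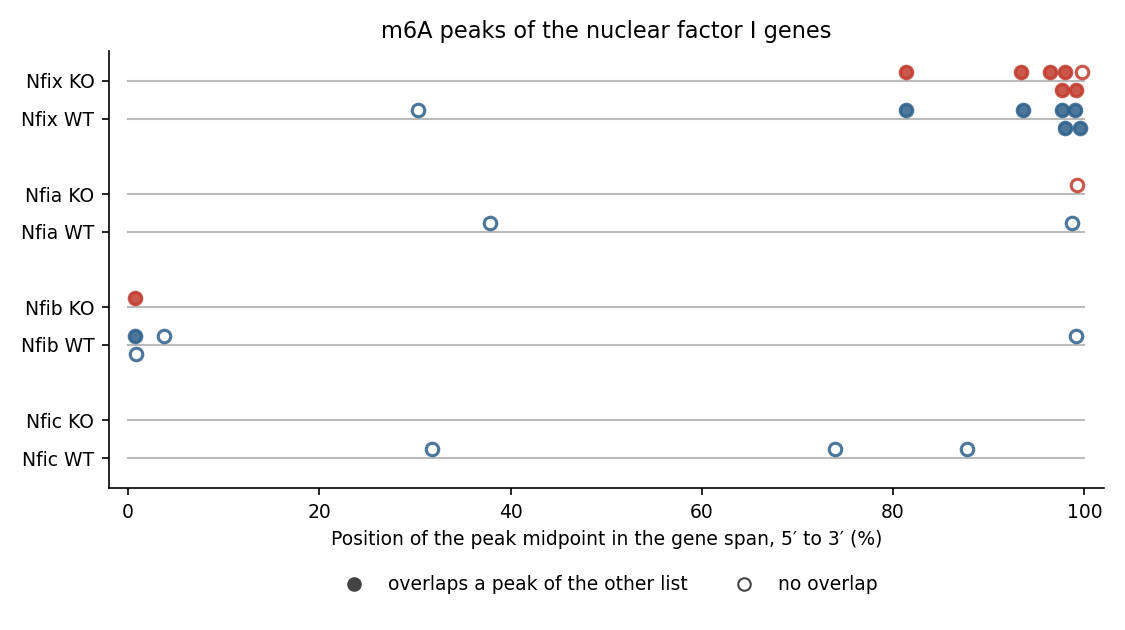
Position of each peak midpoint along the gene span (percent, 5′ to 3′), with the KO row above the WT row for each NFI gene; filled circles overlap a peak of the other list, open circles do not, and crowded circles are staggered vertically. Nfix has 6 filled circles in each row, all in the last 20% of the gene, whereas Nfia and Nfic have none.

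Nfix lies on the minus strand of chromosome 8 from 84704712 to 84801238, a span of 96.5 kb. From the 5′ side, its first KO peak ran from 84721686 to 84723774 in 2 exonic blocks of 180 bases in all (score 1.6e-39). The WT peak there ran from 84721716 to 84723804, also with 180 bases in 2 blocks (score 4e-45). Both skipped the same 1909 bases between 84721818 and 84723728, and both borders of the KO peak lay 30 bases further downstream. These peaks thus crossed the same exon junction and covered nearly the same RNA. The skipped stretch and the upstream block reach into the span of G430095P16Rik, a long noncoding RNA gene from 84723057 to 84726846. That gene had no peak of its own in either list. The Nfix peaks are listed on the minus strand and the library kit was stranded per the labels. The strand of G430095P16Rik was not compared, so the peaks are given to Nfix by their listed symbol only.

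The strongest WT peak of Nfix, with a score listed as 0, ran from 84708093 to 84713779 and held 599 exonic bases in 2 blocks. In the KO list its place was taken by 2 peaks. One, from 84708482 to 84713779 (210 bases, score 7.9e-92), had the same upstream border and the same junction, which skips 5088 bases between 84708677 and 84713766. The other, from 84708123 to 84708302 (180 bases, score 1.6e-56), covered the downstream part of the same WT peak. Together the KO peaks covered 390 of its bases, or 65.1%, and left a gap in its middle. Of all overlapped WT peaks, 153 (7.92%) lay under more than 1 KO peak.

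Further downstream a short KO peak from 84706926 to 84706986, of 61 bases (score 6.3e-12), had the same borders as the WT peak (score 1.6e-31). Such identity was rare, at 60 of the 1933 overlapped WT peaks (3.10%). Next to it a KO peak from 84706537 to 84706717 (181 bases, score 1e-56) lay inside a WT peak from 84706507 to 84706866 (360 bases, score 5e-99) and covered 50.3% of it. Here the KO peak lay in the 3′ part of the WT peak, and its 5′ border was 149 bases further downstream.

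Near the gene end the order was turned, with 1 wide KO peak over 2 WT peaks. The KO peak ran from 84705221 to 84705879 (659 bases, score 5e-81). It covered the whole of a WT peak from 84705430 to 84705849 (420 bases, score 5e-88) and 40.0% of a WT peak from 84705131 to 84705280 (150 bases, score 2.5e-21). It also filled the stretch between them, so that here the KO peak was wider than what it covered. Only 11 KO peaks of the whole list, 0.525% of those over a WT peak, bridged more than 1 WT peak.

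The last KO peak of Nfix, from 84704802 to 84704981 (180 bases, score 2.5e-17), overlapped no WT peak. Its 3′ border lay 90 bases before the annotated gene end, and 149 bases lay between its 5′ border and the nearest WT peak. The convergent gene Lyl1, a blood cell transcription factor gene, shares the last 5 bases of the Nfix span, had no peak in either list and did not reach this KO peak. In the whole KO list, 741 peaks (20.2%) lay in a gene with a WT peak but not over one.

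**Figure D2:**
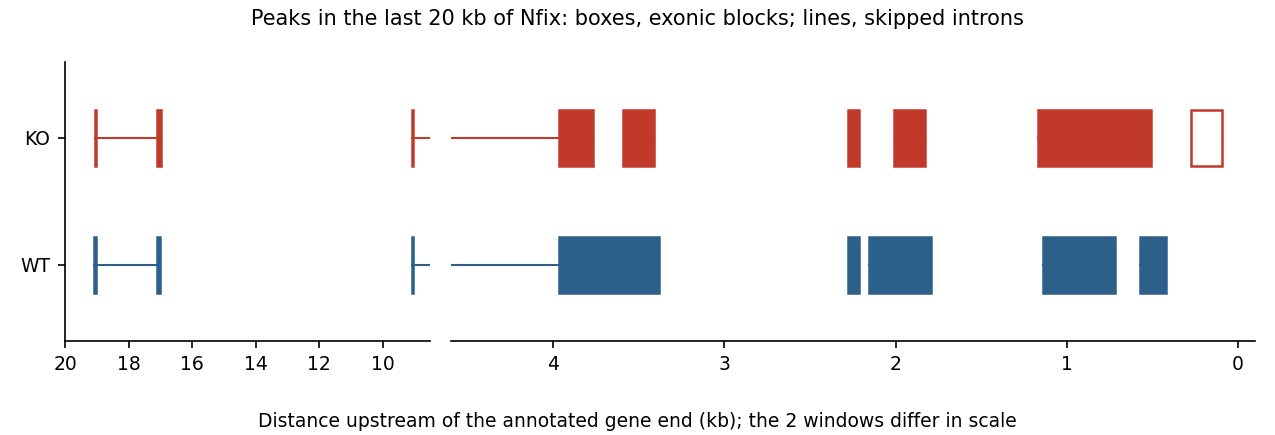
Exonic blocks of the Nfix peaks (boxes) and the introns they skip (lines) against the distance upstream of the annotated gene end in kb, drawn in 2 windows of different scale with KO above WT; filled peaks overlap the other list. The wide WT block whose 3′ border lies 3.38 kb from the gene end is matched by 2 narrower KO blocks, the 2 WT peaks nearest the gene end by 1 wide KO peak, and the open KO box stands for the peak 90 bases from the gene end.

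A single WT peak of Nfix had no KO peak over it. It ran from 84771790 to 84772239 (450 bases, score 1e-246) and lay 67.1 kb upstream of the gene end, at 30.3% of the gene span. It was among the strongest 20% of WT peaks, of which 31.0% were overlapped over all genes. Its 5′ border lay 636 bases downstream of the nearest of the 4 Nfix start sites listed in the RefSeq promoter table, so it sits near a 5′ end of the gene. The closest KO peak of Nfix was 48015 bases away. The WT peaks that were overlapped all lay within the last 20% of the gene span, where 10.5% of all WT peaks were overlapped, below the 16.6% of the fifth that holds the peak without a KO counterpart.

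The overlapped WT peaks of Nfix were spread over the strength classes. Nfix was picked on its number of overlapped peaks, so high counts within classes follow from that choice. They are given as a description only. Of its WT peaks in the strongest 20% of the list, 1 of 2 was overlapped, and in the next 20%, 2 of 2, against 14.0% of all WT peaks of that class. In the third class 2 of 2 were overlapped, against 9.49%, and in the fourth class 1 of 1, against 6.43%. The fourth-class peak had only 40.0% of its bases covered and was not counted when 50% was asked for. One of the third-class peaks was the 61-base WT peak. No Nfix WT peak fell in the weakest class. WT peaks of several exonic blocks were overlapped more often than single-block peaks over the whole list, with 28.9% (interval 27.4 to 30.4) and 7.97% (7.48 to 8.47). In Nfix both kinds were overlapped, with 2 of 2 peaks of several blocks and 4 of 5 single-block peaks. Within the KO list, 5 of its 7 peaks were among the strongest 20%, while the 61-base peak and the one near the gene end were weaker.

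Among the 45 genes with 7 WT peaks, Nfix had the most overlapped WT peaks. The median of these genes was 1 overlapped WT peak, 19 genes had none, and no gene other than Nfix had more than 4. Among all 100 genes with at least 7 WT peaks, Nfix had the highest share, and the median share was 12.9%. The gene most like Nfix by that share was Meg3, an imprinted long noncoding RNA (7 of 9 WT peaks, 77.8%), followed by 5 genes tied at 4 of 7 (57.1%). These were Apc2, a brain relative of the Wnt regulator Apc, Akap9, a scaffold of the centrosome and Golgi, the myosin gene Myo18a, the membrane adaptor gene Ank2, and Prrc2a. Only Meg3 had more KO peaks than Nfix, and 4 genes of the KO list had 7 or more. The cutoff of 7 is the number of WT peaks of Nfix itself. Among genes with 2 or 3 WT peaks, which this ranking leaves out, some had all of them overlapped. These ranks describe how Nfix was picked and support nothing further.

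**Figure D3:**
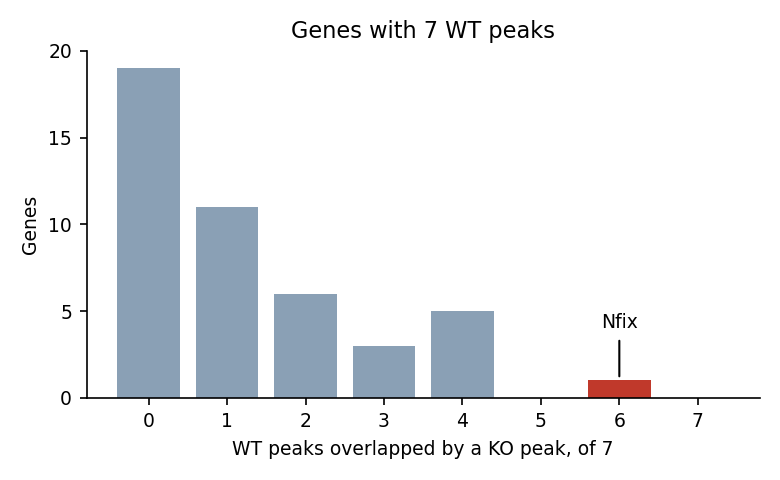
Number of genes (vertical axis) by how many of their 7 WT peaks a KO peak overlapped (horizontal axis), over the 45 genes with 7 WT peaks. Nfix stands alone at 6, and 19 genes stand at 0.

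The length of the Nfix signal was set beside a wider group of genes than its number of overlapped peaks. Its KO peaks summed to 1651 exonic bases and its WT peaks to 2220, a ratio of 74.4%. The median ratio over 2080 genes with a peak in both lists was 34.9%, and 375 of these genes were at or above Nfix. That group includes genes with few WT peaks, so this rank cannot be compared with the ranks by number above. KO peaks covered 1262 of the WT exonic bases of Nfix, or 56.8%. Without the WT peak near the 5′ end, the overlapped WT peaks of Nfix summed to 1770 bases, and the KO peaks over them to 1471 bases. The shorter listed length in KO thus came from that 5′ peak (450 bases) and from fewer bases under KO peaks at some 3′ positions. At other 3′ positions the KO peaks were as wide as those of WT or wider. The last KO peak added 180 bases over no WT peak.

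Nfib showed the reverse arrangement, with its overlapped peak near the 5′ end. The gene lies on the minus strand of chromosome 4 from 82290173 to 82506751. Its single KO peak, from 82505091 to 82505271 (181 bases, score 2.5e-12), lay 1.48 kb from the annotated gene start. It covered 151 bases, or 71.9%, of the first WT peak, which ran from 82505121 to 82505330 (210 bases, score 3.2e-96). A second WT peak from 82504852 to 82505061 (210 bases, score 1e-126), the strongest of the gene, was missed by 29 bases, about 1 step of the peak borders. The KO peak thus covered most of one of these neighbouring WT peaks and stopped just short of the other. Such near misses were uncommon, since 78 of the 13076 WT peaks that were not overlapped (0.597%) had a KO peak within 100 bases.

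The other WT peaks of Nfib had no KO peak near them. One, of 121 bases, ran from 82498472 to 82498592 (score 3.2e-17), 8.16 kb from the gene start. The other, of 120 bases, ran from 82292057 to 82292176 (score 7.9e-36), 1.88 kb from the gene end. Nfib thus had a WT peak near its gene end, as Nfix did, but without a KO peak there. Its KO peaks summed to 181 exonic bases, against 661 bases in WT, which is 27.4%.

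Nfia had a KO peak close to its gene end, but not over a WT peak. The gene lies on the plus strand of chromosome 4 from 97578066 to 98118876, a span of 541 kb. The KO peak ran from 98114295 to 98114474 (180 bases, score 5e-15), 4.40 kb from the gene end. The nearest WT peak ran from 98111480 to 98111719 (240 bases, score 1.6e-28) and lay 2575 bases further upstream. These 2 peaks thus lay in the same end of the gene but marked different stretches. The second WT peak, from 97783212 to 97783332 (121 bases, score 7.9e-13), lay at 37.9% of the gene span and was among the weakest 20% of the WT list. The KO peaks of Nfia summed to 180 bases and the WT peaks to 361 bases.

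Nfic was the NFI gene without any KO peak. It lies on the minus strand of chromosome 10 from 81396191 to 81431919. A WT peak of 810 bases from 81400177 to 81400986 (score 2e-83), 3.99 kb from the gene end, was the widest NFI peak in either list. A WT peak of 121 bases in 2 blocks ran from 81404931 to 81406131 (score 1.5e-10), and one of 211 bases from 81420446 to 81420656 (score 3.2e-12). The wide peak was in the second strongest class, whereas the other 2 were in the weakest, of which 3.54% were overlapped over all genes. In WT the Nfic peaks summed to 1142 bases, more than those of Nfia or Nfib, and in KO to 0.

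**Figure D4:**
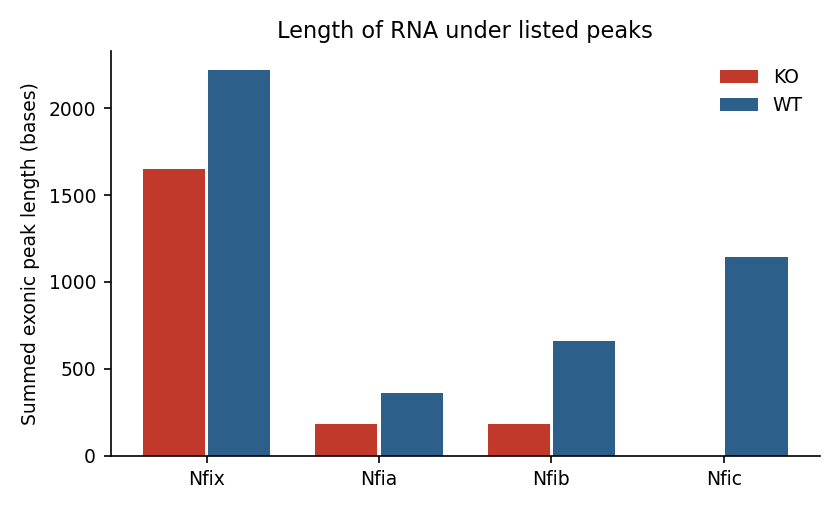
Summed exonic length of the listed peaks in bases for each NFI gene, KO bars left of WT bars, from a single list per genotype and so without error bars. Nfix has 1651 bases in KO and 2220 in WT, and Nfic has none in KO and 1142 in WT.

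Set peak by peak, the contrast on which the family was picked lay at the 3′ side. In the last 20% of the gene span, 6 of 6 WT peaks of Nfix were overlapped. Nfia, Nfib and Nfic had 1 WT peak each in that part, none overlapped. Over all genes, 10.5% of the WT peaks in that part were overlapped. In the first 40% of the gene span, Nfix had 1 WT peak and its paralogs had 5, of which the peak of Nfib near the gene start was the only one overlapped. As to the number of WT peaks, 66.2% of 950 genes with as many as Nfic and 77.3% of 2001 with as many as Nfia had, like them, no overlapped WT peak. Of 469 genes with as many as Nfib, 182 (38.8%) had 1 or more overlapped, as Nfib did. Of the 9 NFI WT peaks without a KO peak over them, 6 lay in a gene that had a KO peak elsewhere, namely Nfix, Nfia or Nfib. Over all genes it was 3382 of 13076 such peaks (25.9%).

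All 9 KO peaks and all 16 WT peaks of the family lay inside the annotated span of their gene and on a single strand per gene. No NFI peak overlapped the span of a microRNA gene, although Mir1191b lies within Nfic. Whether a peak lies in a coding exon or an untranslated region, and which sequence it holds, was not analysed here. Over all 4 genes, 7 of 9 KO peaks lay over a WT peak, against 57.1% of the whole KO list, and 6 of these 7 belonged to Nfix.

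The SOX and forkhead families of transcription factors with roles in neural development were counted beside the NFI genes. The NFI family as a whole had 9 KO peaks and 16 WT peaks, 7 of them overlapped (43.8%, interval 23.1 to 66.8). Of these 7, 6 belonged to Nfix, on whose count the family was picked. Its 3 paralogs together stood at 11.1%, so the family share describes that 1 gene more than the family. SOX genes, which include regulators of progenitors and glia, had 10 KO peaks and 36 WT peaks, 7 of them overlapped (19.4%, interval 9.75 to 35.0). Within that family Sox4, a factor of newborn neurons, had 3 of 4 WT peaks overlapped, while Sox11 had 0 of 6 and Sox8, a glial factor, 0 of 5. Forkhead genes had 9 KO peaks and 42 WT peaks, of which 1 was overlapped (2.38%, interval 0.422 to 12.3). The intervals of the NFI and SOX families overlapped. No difference between families or between paralogs was tested.

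**Figure D5:**
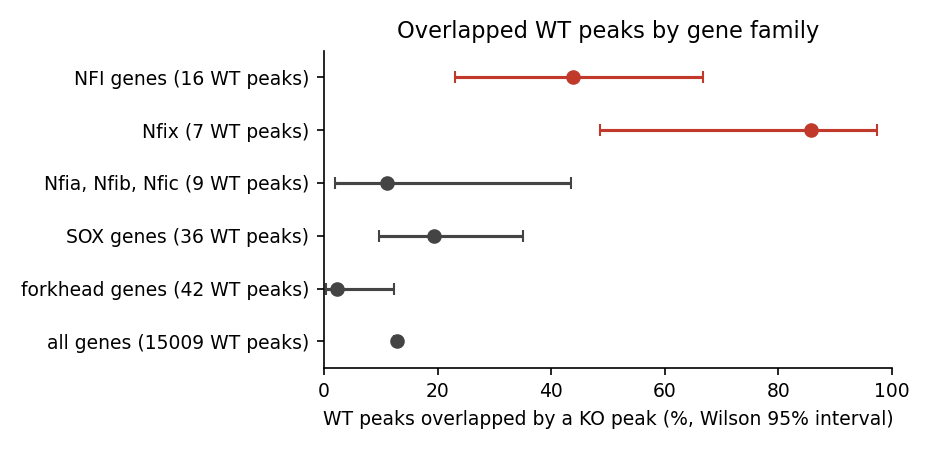
Share of WT peaks overlapped by a KO peak (percent, points) with Wilson 95% intervals (bars) that cover counting error over peaks only. The NFI family stands at 43.8%, Nfix alone at 85.7%, its 3 paralogs at 11.1%, the SOX genes at 19.4%, the forkhead genes at 2.38% and all genes at 12.9%; the intervals of the NFI and SOX families overlap.

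Partners and targets of NFI factors known from mouse development were overlapped about as often as all genes. In a list of 17 such genes, a WT peak was found in 11, and an overlapped one in 2, while 20.6% of all genes with a WT peak had an overlapped one. By peaks it was 2 of 18 (11.1%, interval 3.10 to 32.8), beside 12.9% of all WT peaks. None of these genes had more than 3 WT peaks, so none could match the count of Nfix. Sox9, which induces and cooperates with NFIA at the onset of gliogenesis, had 2 KO peaks and 2 WT peaks, 1 of them overlapped. Cdh2, the N-cadherin gene and a target in cerebellar granule neurons, had 1 KO peak and 1 WT peak, which overlapped. Apcdd1, a target of SOX9 and NFIA, had 3 WT peaks and no KO peak. Gfap, the astrocyte filament gene activated by NFI factors, and Notch1, whose pathway acts upstream of Nfia, had 2 WT peaks each and no KO peak. Bbx, a target of NFIX, had 1 KO peak and no WT peak.

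Cell type markers were counted the same way, beside the 12.9% of all WT peaks, and no difference between them was tested. Neuron markers had 10 KO peaks and 16 WT peaks, of which 9 were overlapped (56.2%, interval 33.2 to 76.9), in 5 of 5 genes with a WT peak. Astrocyte and radial glia markers had 5 KO peaks and 9 WT peaks, 3 of them overlapped (33.3%, interval 12.1 to 64.6). Oligodendrocyte lineage markers had no KO peak and 18 WT peaks (0 overlapped, interval 0 to 17.6). Of cells outside the Nestin lineage, microglia markers had 1 of 7 WT peaks overlapped (interval 2.57 to 51.3) and vessel markers 2 of 6 (interval 9.68 to 70.0). These intervals are wide and most of them overlap each other. By gene, 20.6% of all genes with a WT peak had an overlapped one. Among markers with a WT peak it was 3 of 6 for astrocytes and radial glia and 0 of 6 for the oligodendrocyte lineage. It was 1 of 4 for microglia and 1 of 4 for vessels, so both overlapped vessel peaks lay in 1 gene. Dcx and Snap25 among the neuron markers, Aldoc among the astrocyte markers and P2ry12 among the microglia markers had no peak in either list. Peaks give no expression level, so the labelled tissue could not be checked beyond the presence of peaks in these genes. The part of cell composition in the Nfix result was not tested.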

How the data were processed

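Per the submitters' processing notes, reads were aligned with STAR to GRCm38; for the peak caller, its thresholds and the pooling of libraries, nothing is stated. The authors deposited 1 consensus peak list per genotype, with positions, exonic blocks, a gene symbol and a score that was read as a p-value or q-value. The members and lists were chosen with earlier results of these data known. Overlapping entries of a list on the same strand were merged, from 3733 to 3673 in KO and from 15091 to 15009 in WT. Peaks were compared by exonic blocks on the same strand (at least 1 shared base), with code tested on simulated data. Strength classes are 20% steps of the score within a list. Gene spans and listed start sites came from RefSeq tables of GRCm38.p6. All 4 members had a gene span there, but no start site was listed for Nfib, whose positions rest on its span alone. Peak positions along a gene use the peak midpoint. Shares carry Wilson 95% intervals (SciPy 1.17.1). No test was run, since each genotype has a single list and the family was picked by its result. Named genes were the 4 members, the partners and targets with an overlapped peak plus up to 3 others with most WT peaks, and the 3 genes with the highest overlapped share after Nfix among genes with at least 7 WT peaks (Meg3, Apc2 and Akap9, ties going to the number of WT peaks, then to summed exonic length); Myo18a, Ank2 and Prrc2a, tied with the last 2 by share, Bbx, Sox4, Sox8, Sox11 and the markers without a peak were named after their values were seen. The alternatives tried are in the closing section.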

Additional observations from a re-analysis of the deposited data

How the results depend on the processing

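No paired analysis was possible because each genotype has 1 pooled list, which also kept single replicates from being left out. Ignoring strand, comparing whole spans and leaving entries unmerged gave the same counts for the 4 genes. Asking for 50% of the peak, or of both peaks, left 5 and 4 overlapped WT peaks in Nfix, while the share over all genes moved to 6.83% and 6.26%. Allowing a gap of 100 bases gave 2 overlapped WT peaks in Nfib. With the WT list shortened to its 3673 strongest peaks, Nfix had 1 of 2, Nfib 0 of 1 and all genes 28.6%, and 2 of 9 NFI KO peaks lay over a WT peak; fewer WT peaks enter by construction. With the stronger 50% of each list, Nfix had 4 of 5, Nfib 0 of 2 and all genes 14.1%; the Nfib KO peak is not in that part. Nfia and Nfic had 0 under every setting listed here. For Nfic no setting could give another count, since it has no KO peak. Nfia has no WT peak in the shortened WT list or in the stronger 50%, so its count there was fixed as well. Depth per library is unknown, so whether more reads would add KO peaks was not tested.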
